A study of Mus musculus with 24 samples.

Results

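The genes described here are the ligand *Nodal*, its antagonists *Lefty1* and *Lefty2*, the coreceptor *Tdgf1*, the receptor *Acvr2b*, the inhibitory SMAD *Smad7*, and the corepressors *Skil*, *Tgif1* and *Tgif2*. They were chosen by symbol as genes of the Nodal pathway, 9 of the 26264 genes in the count table, and all 9 were measured in all 24 RNA-seq libraries. The libraries came from mouse embryonic stem cells (ESCs) of 2 lines, BAP1-AID and UTX-AID, each a single clone in which an HA-AID degron tag was placed on the deubiquitinase BAP1 or on the histone demethylase UTX. Each clone was collected without auxin (−IAA) and with indole-3-acetic acid (+IAA), the auxin that sends an AID-tagged protein to TIR1 for degradation, at 0, 3, and 6 h of retinoic acid (RA), which gave 12 groups of 2 replicates. The ESCs of all groups expressed TIR1 stably and were kept in serum with leukemia inhibitory factor (LIF) on gelatin, IAA was added ahead of RA, and no untagged line is among the samples. RA was given in medium lacking LIF, so the effects of RA and of LIF removal cannot be told apart. A vehicle for the −IAA cells is not given in the sources used here.

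Nodal is a secreted factor of the TGF-beta superfamily that signals through activin receptors, with the membrane-anchored protein encoded by *Tdgf1* as a coreceptor. The receptors phosphorylate SMAD2 and SMAD3, which enter the nucleus with SMAD4 and act at target genes with partners such as FOXH1. *Nodal*, *Lefty1* and *Lefty2* are themselves known targets of this signal, so the pathway feeds forward through its ligand and back through its antagonists, and in mouse ESCs it is active at a basal level.

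The libraries summed to between 42018795 and 54034789 estimated counts (median 49836516), and a member had between 827 and 34436 counts in a library, far above the 3 counts taken as the smallest detectable amount. Levels are given as CPM, counts scaled to the library size after trimmed mean of M values (TMM) normalization. A gene is said to have risen or fallen when its adjusted p in edgeR's quasi-likelihood test, taken over all genes tested, was under 0.05. RA was averaged over both IAA arms, 4 libraries against 4, and IAA over the 3 RA times, 6 against 6. Replicates are not stated to be separate cultures, so the p-values measure the spread between these libraries, which may be technical. The RA-inducible gene *Cyp26a1*, whose product degrades RA, rose at 6 h in both clones, by log2 fold changes of 8.95 (standard error, SE, 0.0686) in BAP1-AID and 7.93 (SE 0.211) in UTX-AID. The pluripotency markers *Pou5f1* (794 to 1546 CPM), *Nanog* (76.4 to 453 CPM) and *Sox2* (208 to 510 CPM) were present in every library, whereas the medians of the mesoderm marker *Mesp1*, the trophoblast marker *Elf5* and the fibroblast marker *Col1a2* were 0 CPM. The 3 mesoderm markers summed to at most 1.57 CPM and the 3 fibroblast markers to between 1.4 and 5.66 CPM, mostly *Thy1* (1.26 to 5.33 CPM). The 3 endoderm markers, of which *Gata6* reached 5.01 CPM, summed in BAP1-AID to between 1.46 and 2.45 CPM at 0 h and between 5.14 and 6.24 CPM at 6 h, and in UTX-AID to between 0.834 and 3.16 CPM over all times. The neural markers *Sox1*, *Pax6* and *Neurod1* summed to between 19.5 and 43.4 CPM. The 3 trophoblast markers summed to at most 2.56 CPM at 0 h and to between 6.91 and 14.8 CPM at 6 h, mostly *Tfap2c*. The part of these genes' cells in the RA responses below was not tested. In bulk RNA, fewer cells that express a gene and less RNA per cell cannot be told apart.

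*Lefty1* and *Lefty2* are neighbouring genes on chromosome 1, and their sequences are shown because reads of the 2 copies must be told apart for any comparison between them. On GRCm39 (mm39), *Lefty1* spans chr1:180762587-180765971 and *Lefty2* spans chr1:180720635-180726932, both on the plus strand with 4 exons in the GENCODE vM39 transcript used. The coding sequences are 1104 bases each and 91.8% identical. The longest coding stretch that they share has 140 bases. The 60-base stretch with the most differences lies near the start of the coding sequence, at chr1:180762708-180762767 in *Lefty1* and at chr1:180720782-180720841 in *Lefty2*. It was picked for its differences among all stretches of this length aligned without gaps, so it is not typical of the coding sequence. It holds 18 differences, which are in capitals:
Lefty1: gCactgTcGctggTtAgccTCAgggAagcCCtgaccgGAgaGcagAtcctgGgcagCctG
Lefty2: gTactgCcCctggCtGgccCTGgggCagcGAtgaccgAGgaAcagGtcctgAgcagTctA
Of all windows of 100 bases in the *Lefty1* transcript, 4.78% also occur in the *Lefty2* transcript, and 3.03% of those of *Lefty2* occur in *Lefty1*. On the other strand *Gm39715* shares 13.6% of the *Lefty1* windows and *Gm57186* 17.2% of those of *Lefty2*, and neither is in the count table. The sources used here do not say how the authors' counting treated reads that fit both copies, or whether it used strand. Counts of each gene are uncertain to that extent.

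Promoter sequence was available for 5 of the 9 members, *Nodal*, *Tdgf1*, *Acvr2b*, *Tgif1* and *Tgif2*, in a RefSeq table on GRCm38.p6, a build other than that of the counts. Those of *Nodal*, which rose with RA in both clones, and of *Tdgf1*, the most abundant member, are shown as the 250 bases before the annotated start, at chr10:61417722-61417971 (plus strand) and chr9:110946159-110946408 (minus strand), in the direction of transcription:
Nodal: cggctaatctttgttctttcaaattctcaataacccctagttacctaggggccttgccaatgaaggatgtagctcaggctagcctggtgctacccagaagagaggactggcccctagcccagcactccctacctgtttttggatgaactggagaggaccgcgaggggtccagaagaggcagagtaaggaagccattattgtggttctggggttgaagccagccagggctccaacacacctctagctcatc
Tdgf1: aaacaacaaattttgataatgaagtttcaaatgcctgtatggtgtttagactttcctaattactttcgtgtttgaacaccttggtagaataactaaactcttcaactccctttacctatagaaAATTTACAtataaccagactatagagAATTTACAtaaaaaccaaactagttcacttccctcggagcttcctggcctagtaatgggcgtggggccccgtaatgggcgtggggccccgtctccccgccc
Capitals mark matches on either strand to 5 motifs: the FOXH1 letters TGTNNATT, the SMAD palindrome GTCTAGAC, the SMAD letters GGCGCC, the SMAD box CAGACA and the nuclear receptor motif AGGTCA. Of 32851 such windows in the table, 10.9% held the FOXH1 letters, 0.167% the palindrome, 9.59% GGCGCC, 17.1% the SMAD box and 14% AGGTCA. The *Tdgf1* window held the FOXH1 letters at 2 places that do not overlap, starting 127 and 101 bases before the transcription start, and none of the other motifs. The windows of *Nodal*, *Acvr2b* and *Tgif2* held no match, and 3 of the 5 *Tgif1* windows did, 1 of them with 2 FOXH1 matches and 1 SMAD box. A match is a run of letters and is not evidence of binding.

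Levels of the members differed widely within ESCs before RA. Per kilobase of transcript, *Tdgf1* was at 302 and 310 CPM in the 2 BAP1-AID −IAA libraries at 0 h and at 288 and 302 CPM in the UTX-AID ones, far above all other members. *Tgif1*, which encodes a homeodomain corepressor of SMADs, followed with 101 and 109 CPM per kilobase in BAP1-AID libraries, against 56 and 55.2 in UTX-AID. *Lefty1* (36.7 and 45.3), *Lefty2* (34.8 and 40.2), *Skil* (30.9 and 32.4) and *Tgif2* (28.3 and 29.1) came next in BAP1-AID. The ranges of *Lefty1* and *Lefty2* overlapped between these libraries, although within each library *Lefty1* was the higher. In UTX-AID the ranges of *Lefty1*, *Lefty2* and *Skil* met or overlapped. *Nodal* itself was at 19.3 and 21 CPM per kilobase in BAP1-AID and at 13.4 and 14.5 in UTX-AID, with *Acvr2b* and *Smad7* as the lowest members.

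**Figure D1:**
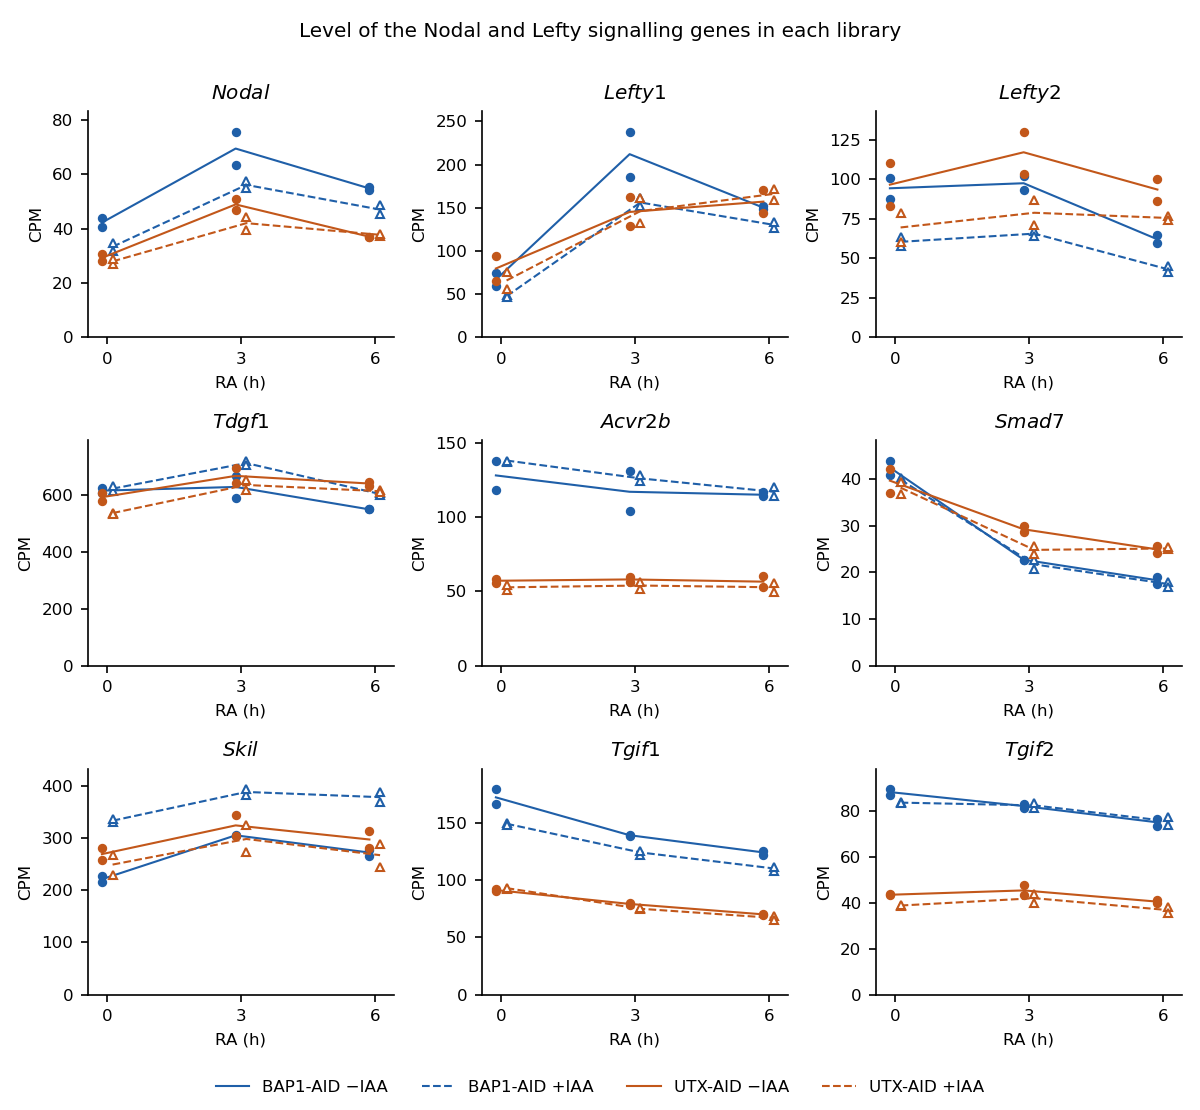
Level (CPM, linear axis from 0) of each of the 9 genes in each library against hours of RA. Filled circles and solid lines are −IAA, open triangles and dashed lines +IAA, blue BAP1-AID and orange UTX-AID, points are single libraries and lines join the means of 2. *Nodal* peaks at 3 h, *Lefty1* rises steeply in both clones, *Smad7* falls, and *Acvr2b*, *Tgif1* and *Tgif2* lie lower in UTX-AID than in BAP1-AID at every time.

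The first question was how the pathway's genes changed during the first hours of RA. In both clones *Nodal* and *Lefty1* rose and *Smad7* and *Tgif1* fell, while *Lefty2* did not follow *Lefty1*. In BAP1-AID at 3 h, 3 of the 9 members rose and 2 fell, where 7.26% of the 15695 genes tested rose and 3.91% fell. In UTX-AID at 3 h, 4 rose and 2 fell, where 5.51% of 16268 genes rose and 2.75% fell. At 6 h, 3 rose and 4 fell in BAP1-AID, where 14.4% of all genes rose and 9.67% fell. The counts in UTX-AID at 6 h were 3 and 2, where 6.92% rose and 5.52% fell. At 6 h the members had a median log2 fold change of −0.19 in the BAP1-AID clone and 0.04 in the other, beside medians of all genes of 0.0092 and −0.00123. The list is short and mixes activators with inhibitors, so its median summarises little. It was also chosen with earlier results of these data known, so its counts beside those of all genes are descriptions.

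*Nodal* lies at chr10:61253587-61261117 with 3 exons and encodes the ligand of the pathway. In BAP1-AID its level was 43.9 and 40.4 CPM in the −IAA libraries at 0 h, 75.7 and 63.4 at 3 h, and 54.3 and 55.2 at 6 h. The +IAA libraries were at 31.8 and 34.8 CPM, then 57.4 and 54.8, then 48.7 and 45.3. All 4 libraries at 3 h and all 4 at 6 h lay above all 4 at 0 h. The change was 0.73 on the log2 scale at 3 h (SE 0.0652, adjusted p = 7.19e-06), or 1.66-fold, and 0.44 at 6 h (SE 0.0652, adjusted p = 0.00032). In UTX-AID the −IAA libraries were at 30.5 and 28 CPM at 0 h, 50.8 and 46.9 at 3 h, and 37 and 37 at 6 h. The +IAA libraries of that clone were at 27.1 and 28.8, 39.6 and 44.4, and 37.2 and 38.1 CPM. *Nodal* rose there by 0.67 at 3 h (SE 0.0625, adjusted p = 2.21e-06) and 0.39 at 6 h (SE 0.0627, adjusted p = 0.000371), again with no overlap between times and 0 h. From 3 to 6 h it fell in both clones, by 0.29 in BAP1-AID (SE 0.0646, adjusted p = 0.0164) and by 0.28 in UTX-AID (SE 0.0619, adjusted p = 0.0323), so that 3 h was the highest of the 3 times.

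*Lefty1* encodes a secreted antagonist that binds Nodal and its coreceptor, and it showed the largest RA response of the 9 genes in both clones. In BAP1-AID the −IAA libraries were at 73.7 and 59.6 CPM at 0 h, 238 and 186 at 3 h, and 148 and 152 at 6 h. The +IAA libraries were at 48.6 and 46.3 CPM, then 152 and 161, then 127 and 133. Every library with RA exceeded every library without it, by 1.69 on the log2 scale at 3 h (SE 0.0837, adjusted p = 3.31e-08), or 3.23-fold, and by 1.32 at 6 h (SE 0.083, adjusted p = 2.02e-07). In UTX-AID the −IAA libraries were at 93.5 and 65.5 CPM at 0 h, 162 and 129 at 3 h, and 171 and 144 at 6 h. The +IAA libraries of UTX-AID were at 75.1 and 56.1, 161 and 132, and 172 and 159 CPM. The rise was 1.02 at 3 h (SE 0.119, adjusted p = 2.56e-05), or 2.03-fold, and 1.17 at 6 h (SE 0.12, adjusted p = 4.07e-06), also without overlap. Between 3 and 6 h *Lefty1* fell in BAP1-AID by 0.38 (SE 0.0811, adjusted p = 0.0147), and its change in UTX-AID was 0.15 (SE 0.117, adjusted p = 0.724).

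*Lefty2*, the closely related antagonist next to it, behaved differently. Its BAP1-AID −IAA libraries were at 101 and 87.5 CPM at 0 h, 102 and 92.9 at 3 h, and 59.4 and 64.4 at 6 h. With IAA the values were 63.1 and 57.4, 67.1 and 63.8, and 45 and 40.9 CPM. The change in BAP1-AID was 0.08 at 3 h (SE 0.0649, adjusted p = 0.573), and *Lefty2* fell by 0.54 at 6 h (SE 0.0655, adjusted p = 5.93e-05), in each arm below its own libraries at 0 h. In UTX-AID the −IAA libraries were at 110 and 82.7 CPM at 0 h, 130 and 103 at 3 h, and 100 and 86.3 at 6 h. The +IAA libraries were at 78.7 and 60, 86.5 and 70.9, and 76.5 and 74.3 CPM. The changes were 0.23 at 3 h (SE 0.11, adjusted p = 0.258) and 0.043 at 6 h (SE 0.11, adjusted p = 0.889), and over both arms the libraries of all 3 times overlapped.

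The ratio of the 2 antagonists' counts rose with RA, and the order of the raw counts reversed. The ratio of *Lefty1* to *Lefty2* counts was between 0.682 and 0.806 in the 4 BAP1-AID libraries at 0 h, between 2 and 2.52 at 3 h, and between 2.36 and 3.25 at 6 h. In UTX-AID it was between 0.792 and 0.955 at 0 h, between 1.24 and 1.86 at 3 h, and between 1.67 and 2.25 at 6 h. *Lefty2* had more counts than *Lefty1* in all 8 libraries at 0 h and fewer in all 16 with RA. These counts are not corrected for transcript length, which is 1626 bases for *Lefty1* and 2511 for *Lefty2*. Per kilobase, *Lefty1* was already the higher in all 8 libraries at 0 h. In BAP1-AID −IAA it was at 45.3 and 36.7 CPM per kilobase, against 40.2 and 34.8 for *Lefty2*. The log2 ratio rose by 1.61 and 1.86 in BAP1-AID and by 0.79 and 1.13 in UTX-AID at 3 and 6 h. Each of these 4 differences had p = 0.0286 (adjusted over the 4, 0.0286) in a two-sided exact permutation test. That is the smallest p that 4 libraries against 4 can give when shuffled without regard to IAA arm. The test shuffled them so, although the ratio differed between arms as given below, and its p does not account for the arms. The test was added after the data were seen, and ranges that do not overlap, as above, always give this p. The 3 and 6 h tests of a clone also share its 0 h libraries. In UTX-AID the 2 +IAA libraries lay above the 2 −IAA libraries at each of the 3 times (1.86 and 1.86 against 1.24 and 1.26 at 3 h), and in BAP1-AID at 0 and 6 h.

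**Figure D2:**
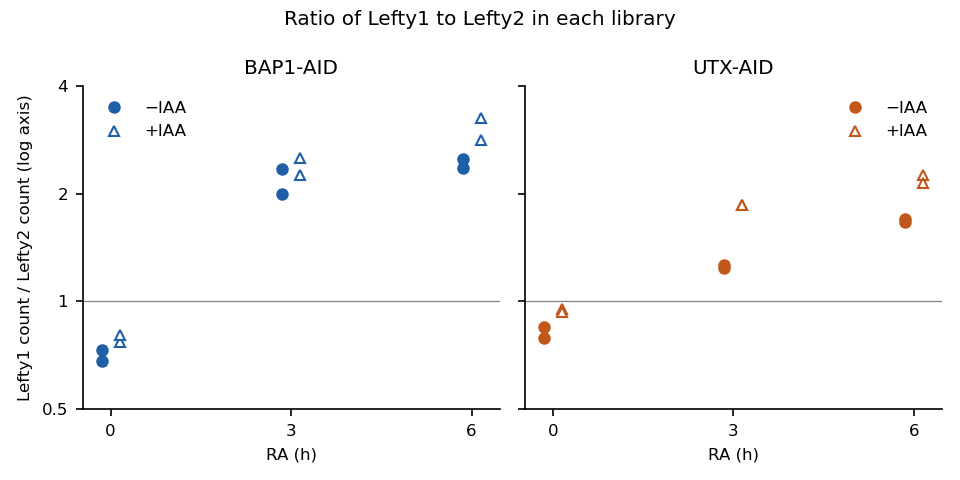
Ratio of the *Lefty1* count to the *Lefty2* count in each library (log axis) against hours of RA, for BAP1-AID on the left and UTX-AID on the right. Filled circles are −IAA, open triangles +IAA, and the grey line marks equal counts, which are not corrected for transcript length. The libraries at 0 h lie between 0.682 and 0.955, and those with RA between 1.24 and 3.25.

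The coreceptor and the receptor moved little. *Tdgf1* (named *Cripto* in GENCODE, chr9:110768655-110775292, minus strand) rose in UTX-AID, from 580, 608, 540 and 535 CPM at 0 h to 644, 695, 621 and 654 at 3 h (0.22 on the log2 scale, SE 0.033, adjusted p = 0.000374). At 6 h it was at 635, 649, 619 and 611 CPM there, a rise of 0.16 (SE 0.033, adjusted p = 0.00333). In BAP1-AID its range was 609 to 634 CPM at 0 h, 590 to 723 at 3 h and 551 to 610 at 6 h, with changes of 0.11 (adjusted p = 0.181) and −0.10 (adjusted p = 0.137). *Acvr2b* (chr9:119231103-119271213), an activin type II receptor, passed the test at neither time in either clone, and its log2 fold changes ran from −0.19 to 0.035. It was at 104 to 138 CPM in all BAP1-AID libraries and at 49.8 to 60.2 CPM in all UTX-AID ones.

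*Smad7* (chr18:75500374-75529006, 4 exons) encodes an inhibitory SMAD that blocks the receptors and is a known target of TGF-beta family signals. It showed the largest fall of the 9 genes in both clones. In BAP1-AID the −IAA libraries were at 40.8 and 43.9 CPM at 0 h, 22.7 and 22.7 at 3 h, and 17.5 and 19 at 6 h. With IAA they were at 40.1 and 39.4, 20.7 and 22.7, and 18 and 16.9 CPM. *Smad7* fell by 0.89 at 3 h (SE 0.0595, adjusted p = 5.34e-07) and by 1.20 at 6 h (SE 0.0601, adjusted p = 2.54e-08), to 0.436 of its level, and the libraries of the 3 times did not overlap. In UTX-AID the −IAA values were 42.1 and 37 CPM, 29.9 and 28.6, and 25.6 and 24.1, and the +IAA values were 39.4 and 36.8, 25.6 and 23.9, and 24.9 and 25.4. The fall there was 0.52 at 3 h (SE 0.0664, adjusted p = 6.34e-05) and 0.63 at 6 h (SE 0.0666, adjusted p = 5.92e-06). *Smad7* fell while *Lefty1* rose.

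The nuclear corepressors split. *Tgif1* (chr17:71151192-71160541, minus strand) was at 166, 179, 150 and 148 CPM in BAP1-AID at 0 h, at 138, 139, 122 and 125 at 3 h, and at 122, 125, 108 and 111 at 6 h. It fell by 0.29 (SE 0.0437, adjusted p = 0.000609) and by 0.46 (SE 0.0438, adjusted p = 8.49e-06). In UTX-AID it went from 91.8, 90.5, 92.5 and 93.4 CPM to 80, 78.3, 74.4 and 75.5 and then to 70.1, 69.8, 68.8 and 65. These were falls of 0.25 (SE 0.0436, adjusted p = 0.00131) and 0.42 (SE 0.0438, adjusted p = 4.72e-06), and in both clones no library with RA reached the lowest library at 0 h. *Skil* (chr3:31148816-31176740), which encodes the SMAD corepressor SnoN, was at 216, 227, 330 and 336 CPM in BAP1-AID at 0 h and at 304, 306, 382 and 393 at 3 h, where it rose by 0.34 (SE 0.0408, adjusted p = 0.000116), each arm above its own 0 h libraries. In UTX-AID it was at 257, 281, 230 and 268 CPM at 0 h and at 304, 344, 273 and 324 at 3 h, a rise of 0.27 (SE 0.0692, adjusted p = 0.0219). That call did not hold without −IAA 0 h replicate 1, −IAA 3 h replicate 2, +IAA 0 h replicate 1 or +IAA 3 h replicate 2, with adjusted p up to 0.112. At 6 h *Skil* rose in BAP1-AID by 0.24 (SE 0.0408, adjusted p = 0.000866), and its change in UTX-AID was 0.13 (SE 0.0692, adjusted p = 0.291). *Tgif2* (chr2:156681927-156697670), a relative of *Tgif1*, fell at 6 h in BAP1-AID by 0.19 (SE 0.0433, adjusted p = 0.00701), from 83.6 to 89.6 CPM at 0 h to 73.8 to 77.4. In UTX-AID it was at 38.5 to 43.8 CPM at 0 h and at 35.6 to 41.2 at 6 h (−0.083, SE 0.0561, adjusted p = 0.433). The antisense gene *5430405H02Rik* covers 89% of the windows of the *Tgif2* transcript and had 8 to 64 counts in the table. On the same strand *Tgif2-ps2* and *Gm63447*, which are not in the table, share 11.3% and 9.66% of the windows. Whether the counting used strand and how it treated shared reads are not given, so *Tgif2* is uncertain to that extent.

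**Figure D3:**
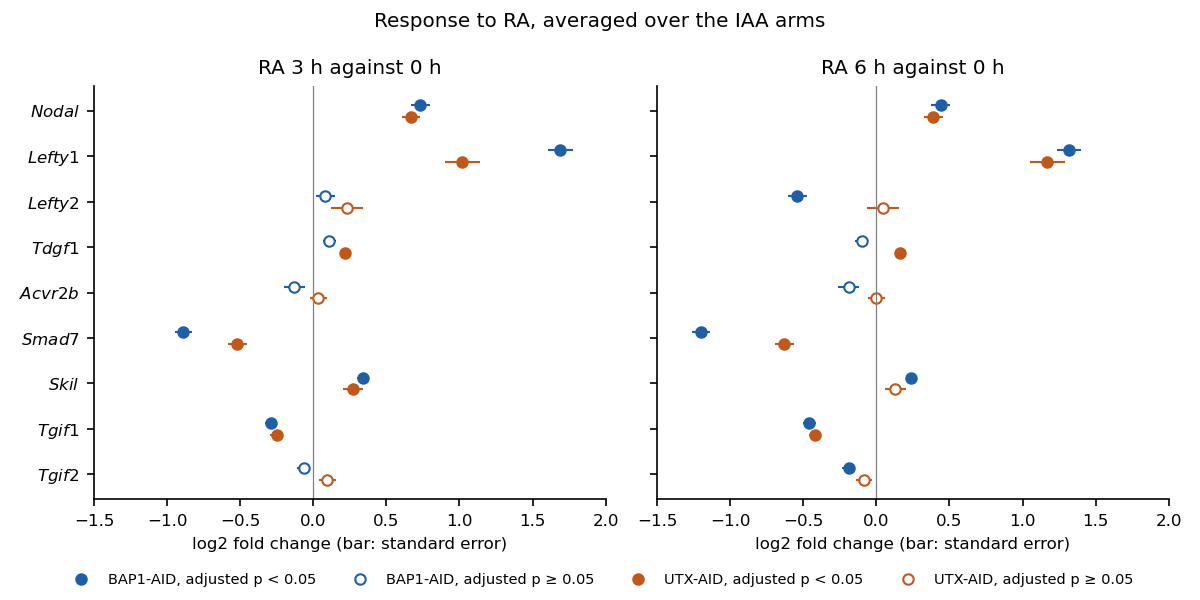
Log2 fold change (horizontal axis) of each gene after 3 h (left) and 6 h (right) of RA against 0 h, averaged over the IAA arms, in BAP1-AID (blue) and UTX-AID (orange). Bars are standard errors and filled points have an adjusted p under 0.05. *Lefty1* lies between 1.02 and 1.69 and *Smad7* between −1.20 and −0.52.

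Between 3 and 6 h, none of the members rose in either clone by edgeR or DESeq2, where 4.33% of all BAP1-AID genes and 0.639% of all UTX-AID genes did by edgeR, and none had a positive change with an unadjusted p under 0.05. In BAP1-AID 6 fell, *Lefty2* by 0.62 (SE 0.0655, adjusted p = 0.000172), *Smad7* by 0.31, *Tdgf1* by 0.21 and *Tgif1* by 0.16 besides *Nodal* and *Lefty1*, where 3.82% of all genes fell. In UTX-AID *Nodal* alone fell, where 1.03% of all genes fell. The BAP1-AID calls of *Lefty2* and *Smad7* held whichever library was left out. Those of *Nodal*, *Lefty1*, *Tdgf1* and *Tgif1* held in 8, 7, 6 and 4 of the 12 such fits. All 4 were lost without −IAA 6 h replicate 1, −IAA 6 h replicate 2 or +IAA 6 h replicate 2, and some without +IAA 0 h, +IAA 3 h or the other +IAA 6 h libraries, with adjusted p up to 0.162. *Nodal* in UTX-AID was lost without −IAA 3 h replicate 1, +IAA 3 h replicate 2 or any of the 4 libraries at 6 h, with adjusted p up to 0.166.

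The other genes of the pathway were taken from a list of 46, of which 41 were tested in each clone. At 3 h of RA, 5 of them rose and 3 fell in BAP1-AID (7.26% and 3.91% of all genes), and 5 rose and 2 fell in UTX-AID (5.51% and 2.75%). At 6 h, 6 of the 41 rose in each clone, a share near that of all genes in BAP1-AID (14.4%) and beside 6.92% in UTX-AID. The 6 were *Inhbb*, *Bmp4*, *Smad2*, *Ski*, *Smad6* and *Pmepa1* in both. *Inhbb*, which encodes the subunit of activin B, went from 4.02 and 2.65 CPM to 19.9 and 19.7 in BAP1-AID −IAA ESCs and from 20.3 and 19.9 to 46.3 and 42.2 in UTX-AID. Its log2 fold changes at 6 h were 2.63 (SE 0.108, adjusted p = 4.07e-09) and 1.15 (SE 0.071, adjusted p = 1.43e-08). *Pmepa1*, a TGF-beta-induced gene whose product restrains SMAD2 and SMAD3, rose by 1.58 (SE 0.064, adjusted p = 3.61e-09) and 1.81 (SE 0.116, adjusted p = 2.04e-08). *Smad6*, the other inhibitory SMAD gene, rose by 1.36 (SE 0.191, adjusted p = 0.000208) and 1.44 (SE 0.3, adjusted p = 0.00371), in the opposite direction to *Smad7*. In BAP1-AID 6 genes fell (9.67% of all genes did), *Gdf3*, *Fst*, *Smad3*, *Foxh1*, *Trim33* and *Eomes*, and in UTX-AID 5 (5.52% of all genes), *Gdf3*, *Fst*, *Smad3*, *Smad4* and *Trim33*. *Fst*, which encodes the activin inhibitor follistatin, fell by 2.01 (SE 0.168, adjusted p = 2.37e-06) in BAP1-AID and by 1.43 (SE 0.414, adjusted p = 0.0327) in UTX-AID. In that clone it went from 1.67 and 1.61 to 0.397 and 0.234 CPM without IAA, whereas the +IAA libraries, at 0.678 and 0.658 CPM at 0 h and 0.266 and 0.682 at 6 h, overlapped. *Smad3*, which encodes a signal transducer of the pathway, fell by 0.90 (SE 0.0889, adjusted p = 1.05e-05) and 0.58 (SE 0.128, adjusted p = 0.00527). At 6 h the 41 tested genes had a median log2 fold change of −0.13 in the BAP1-AID clone and −0.03 in the other.

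The next question was how these genes differed between the +IAA and −IAA arms. No untagged line is among the samples, so depletion of the tagged protein and an effect of IAA itself cannot be told apart. Averaged over the RA times, *Skil* rose with IAA in BAP1-AID and *Lefty2*, *Lefty1*, *Nodal* and *Tgif1* fell, and in UTX-AID *Lefty2* alone fell. In BAP1-AID 17.9% of all genes tested rose and 18.2% fell, so that 1 and 4 of 9 members stand against a high background. In UTX-AID 0.861% rose and 1.76% fell. The mRNA of the tagged gene does not report on degradation of its protein, and *Bap1* differed by 0.0034 on the log2 scale (SE 0.0384) between the arms of BAP1-AID.

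*Lefty2* was lower with IAA in both clones, and at each of the 3 RA times both +IAA libraries lay below both −IAA libraries in each clone. In BAP1-AID it fell by 0.59 (SE 0.0534, adjusted p = 5.39e-06), to 0.664 of its −IAA level, with 101 and 87.5 CPM against 63.1 and 57.4 at 0 h. In UTX-AID it fell by 0.45 (SE 0.0901, adjusted p = 0.0159), to 0.73 of its −IAA level, with 110 and 82.7 CPM against 78.7 and 60 at 0 h. The difference between these 2 contrasts, UTX-AID minus BAP1-AID, was 0.12 (SE 0.114, adjusted p = 0.516), which does not show that they were equal. The fall was already there before RA in BAP1-AID (−0.65, SE 0.0922, adjusted p = 0.000375), and in UTX-AID at 0 h it was −0.48 (SE 0.156, adjusted p = 0.42).

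In BAP1-AID the difference between arms ran with GC content, with a Spearman correlation of −0.471 between log2 fold change and transcript GC content across 15279 genes, beside 0.0225 across 15806 genes in UTX-AID. Genes are not independent replicates, and these are descriptions. Values with offsets for GC content and transcript length are therefore given beside those of the members. *Skil*, whose transcript is at 43.3% GC, was at 330 to 393 CPM in the 6 +IAA libraries and at 216 to 306 in the 6 −IAA ones, and rose by 0.46 (SE 0.0334, adjusted p = 1.36e-06), or by 0.16 with the offsets (SE 0.0333, adjusted p = 0.00345). *Lefty1*, at 58.5% GC, fell by 0.39 (SE 0.0666, adjusted p = 0.000727), or by 0.16 with the offsets (SE 0.0475, adjusted p = 0.0245). Its values with the offsets were −0.28 at 0 h (adjusted p = 0.0545), −0.22 at 3 h (adjusted p = 0.138) and 0.014 at 6 h (adjusted p = 0.952), so no single time passed, and without them 6 h did not pass either (−0.22, adjusted p = 0.258). *Nodal*, at 55.9% GC, fell by 0.30 (SE 0.053, adjusted p = 0.00089), and with the offsets the value was −0.094 (SE 0.0433, adjusted p = 0.131). *Lefty2* and *Tgif1* kept most of their differences, at −0.47 (SE 0.0486, adjusted p = 4.56e-05) and −0.16 (SE 0.0362, adjusted p = 0.00637) against −0.59 and −0.19 (SE 0.0357, adjusted p = 0.00123). With the offsets *Tgif2* was 0.14 higher with IAA (SE 0.0312, adjusted p = 0.0052), against −0.03 without them (SE 0.0354, adjusted p = 0.551). In UTX-AID *Tdgf1* passed with the offsets (−0.12, SE 0.0257, adjusted p = 0.0255) and not without them, and *Lefty2* was at −0.47 with them (SE 0.0858, adjusted p = 0.00915).

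**Figure D4:**
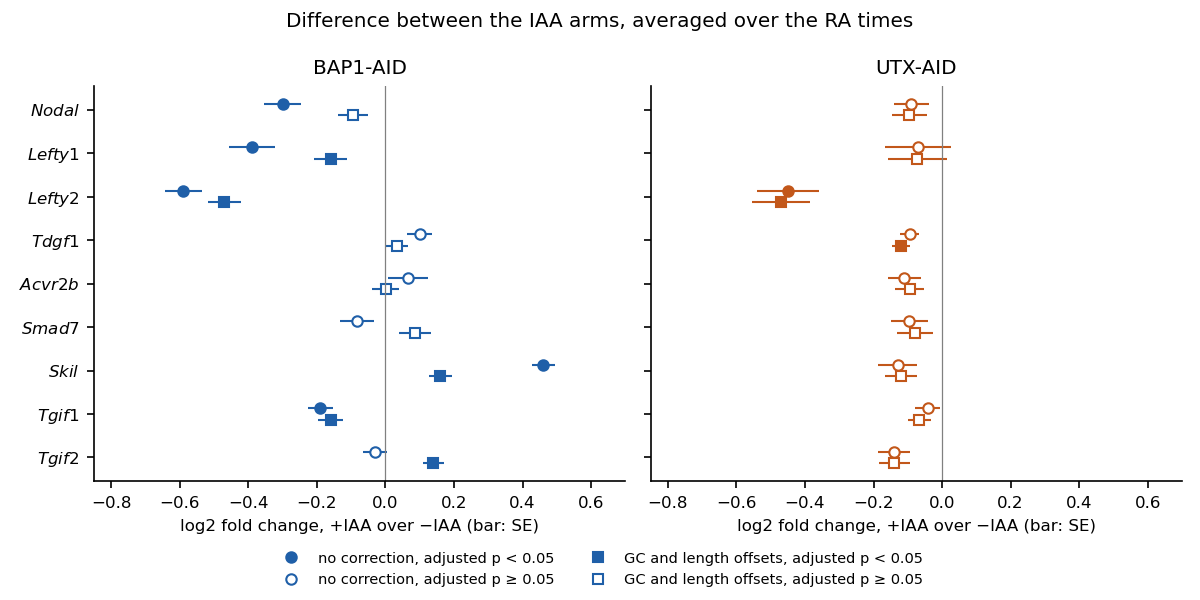
Log2 fold change of +IAA over −IAA ESCs (horizontal axis), averaged over 0, 3, and 6 h of RA, without correction (circles) and with offsets for GC content and transcript length (squares), in BAP1-AID (left) and UTX-AID (right). Bars are standard errors and filled symbols have an adjusted p under 0.05. *Lefty2* lies between −0.59 and −0.45 in all 4 cases, and *Skil* in BAP1-AID moves from 0.46 to 0.16 with the offsets.

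The IAA contrast itself differed between the clones for 3 of the 9 members, where it did for 25.9% of all 16816 genes tested. For *Skil* the UTX-AID contrast was lower by 0.61 (SE 0.0757, adjusted p = 2.12e-06), and by 0.29 with the offsets (SE 0.0613, adjusted p = 0.00186). For *Tdgf1* it was lower by 0.21 (SE 0.0505, adjusted p = 0.00277), or by 0.15 with the offsets (SE 0.0436, adjusted p = 0.0155), from 0.10 in BAP1-AID (SE 0.0369, adjusted p = 0.0508) and −0.095 in UTX-AID (SE 0.027, adjusted p = 0.0835). For *Tgif1* it was higher by 0.13 (SE 0.0487, adjusted p = 0.0488), and by 0.089 with the offsets (SE 0.0489, adjusted p = 0.226). *Tgif2* passed with the offsets (−0.30, SE 0.0521, adjusted p = 0.000362) and not without them (−0.13, SE 0.0571, adjusted p = 0.103).

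Of the 41 other pathway genes tested, 7 rose and 4 fell with IAA in BAP1-AID, where 17.9% of all genes rose and 18.2% fell, so the number that rose was near the background and the number that fell below it. The values that follow are without the GC content and length offsets. The receptor genes *Tgfbr1* (0.61, SE 0.0385, adjusted p = 8.42e-07) and *Acvr2a* (0.46, SE 0.0647, adjusted p = 0.000153) rose, as did *Trim33* (0.47, SE 0.0348, adjusted p = 1.49e-06), which encodes a regulator of SMAD4. *Foxh1*, whose product is a SMAD partner, fell by 0.24 (SE 0.0402, adjusted p = 0.000689). In UTX-AID none of the 41 passed edgeR's test. An unadjusted p under 0.05 was seen for 10 of them, where 2543 of all 16268 genes tested had one.

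Whether the RA response depended on IAA was tested as a difference of differences at 3 and 6 h. None of the 9 members passed in any of the 4 tests, in edgeR or in DESeq2. In BAP1-AID the share of all genes that passed in edgeR was 0% for the 3 h response and 0.153% for the 6 h response, and the UTX-AID shares were 0.0123% and 0%. At an unadjusted p under 0.05 the number of members was 1, 0, 0 and 0. Over all genes it was 1176 and 1615 of 15695 in BAP1-AID, and 671 and 558 of 16268 in UTX-AID. The 1 member was *Skil* at 3 h in BAP1-AID, whose rise differed by −0.23 in +IAA ESCs (SE 0.0815, adjusted p = 0.511). The rise of *Lefty1* at 3 h in BAP1-AID was 1.66 without IAA (SE 0.118) and 1.72 with it (SE 0.119). That of *Nodal* was 0.71 (SE 0.0918) and 0.75 (SE 0.0926), and the fall of *Smad7* was 0.91 (SE 0.084) and 0.87 (SE 0.0843). The SEs of these differences between arms ran from 0.066 to 0.237 in UTX-AID, so small differences were not detectable with 2 libraries per group.

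The clones also differed before any treatment. At 0 h without IAA, *Acvr2b*, *Tgif2*, *Tgif1* and *Nodal* were lower in UTX-AID than in BAP1-AID and *Skil* was higher, where 27.2% of all genes were lower and 25.4% higher. *Acvr2b* was at 55.8 and 58.7 CPM against 118 and 138, a difference of −1.15 (SE 0.0979, adjusted p = 8.43e-10). *Tgif2* was at 43.4 and 43.8 CPM against 87.3 and 89.6 (−1.01, SE 0.0703, adjusted p = 2.8e-11), and *Tgif1* at 91.8 and 90.5 against 166 and 179 (−0.91, SE 0.0599, adjusted p = 1.13e-11). For these 3 genes no UTX-AID library overlapped a BAP1-AID library at any time or in either arm. How many of all genes were separated in this way was not counted, and 52.6% of all genes differed between the clones at 0 h. *Nodal* was lower by 0.52 (SE 0.0902, adjusted p = 3.27e-05), and by 0.20 with the GC content and length offsets (adjusted p = 0.0546). *Skil* was higher by 0.29 (SE 0.0929, adjusted p = 0.0113), but lower, at −0.35, with the offsets (SE 0.0753, adjusted p = 0.000434), and it did not pass without BAP1-AID −IAA 0 h replicate 1 or UTX-AID −IAA 0 h replicate 2 (adjusted p up to 0.0897). With the offsets *Acvr2b*, *Tgif2* and *Tgif1* were lower by 0.80, 0.62 and 0.96, and *Lefty1* (0.55, adjusted p = 0.00206), *Smad7* (0.40, adjusted p = 0.000414) and *Tdgf1* (−0.41, adjusted p = 1.2e-06) also passed. *Lefty1* (0.26, SE 0.158, adjusted p = 0.18) and *Lefty2* (0.041, SE 0.139, adjusted p = 0.839) did not pass without them. Each protein was tagged in 1 line, so the tag, the protein and the line cannot be told apart. Of 42 other pathway genes tested, 8 were higher and 17 lower in UTX-AID, among them *Inhbb* (2.59, SE 0.139, adjusted p = 3.47e-13) and *Bmp4* (2.29, SE 0.176, adjusted p = 1.54e-10), both ligand genes, and *Smad3* (−1.46, SE 0.149, adjusted p = 1.58e-08).

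The RA response was compared between the clones in a fit of all 24 libraries, with differences taken as UTX-AID minus BAP1-AID. At 3 h, 2 of the 9 members differed, where 0.755% of all genes did. *Lefty1* rose less in UTX-AID, with a difference of −0.67 (SE 0.157, adjusted p = 0.0472), and *Smad7* fell less, with a difference of 0.37 (SE 0.0867, adjusted p = 0.0449). Both lay close to the threshold, and over the 24 fits that each left out 1 library the adjusted p of *Lefty1* ran from 0.00723 to 0.192 and that of *Smad7* from 0.02 to 0.157. At 6 h, 3 members differed, where 2.71% of all genes did. *Smad7* fell less in UTX-AID, with a difference of 0.57 (SE 0.0871, adjusted p = 0.000411), and this held in all 24 such fits. *Lefty2* differed by 0.59 (SE 0.14, adjusted p = 0.0207) and *Tdgf1* by 0.26 (SE 0.0618, adjusted p = 0.0196), and they passed in 17 and 20 of those 24 fits. The *Lefty1* difference at 6 h was −0.15 (SE 0.157, adjusted p = 0.803), and *Nodal* differed by −0.057 at 3 h (SE 0.0895) and −0.044 at 6 h (SE 0.0898). Among other pathway genes the log2 rise of *Inhbb* at 6 h was smaller in UTX-AID, with a difference of −1.48 (SE 0.13, adjusted p = 1.64e-07). Its −IAA mean went from 3.34 to 19.8 CPM in BAP1-AID and from 20.1 to 44.3 CPM in UTX-AID. In CPM the rise was therefore not smaller in UTX-AID.

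Genes with profiles most like those of the ligand and its antagonists were sought among 12329 genes, by Pearson correlation of log2 CPM over the 24 libraries after the mean of each clone was taken out. Libraries of a group share their treatment, so the correlations describe these conditions only. Closest to *Nodal* were *Nanog* (r = 0.94), a pluripotency factor, *Rarg* (r = 0.931), an RA receptor gene, and *Mllt6* (r = 0.93). Closest to *Lefty1* were *Eras* (r = 0.966), which encodes a Ras protein of ESCs, *Plk3* (r = 0.957) and *Pgpep1* (r = 0.954). Among the 3 closest to *Lefty2* were *Pald1* (r = 0.86) and *Lmna* (r = 0.854), which encodes lamin A and C. Among the members themselves *Nodal* and *Lefty1* had r = 0.885, *Smad7* and *Tgif1* r = 0.906, *Lefty1* and *Smad7* r = −0.828, and *Lefty1* and *Lefty2* r = 0.182.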

How the data were processed

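The authors made poly-A RNA-seq libraries, aligned reads to mm39 with HISAT2 2.2.1, handled alignments with Samtools 1.19 and deposited estimated counts per gene from StringTie 2.2.1, whole numbers without normalization. The annotation and strandedness are not given in the sources used here. Groups came from the sample labels. Genes were kept by filterByExpr of edgeR 4.0.16 (minimum count 10, total 15, R 4.3.3, limma 3.58.1), normalized by TMM (factors 0.965 to 1.03) and tested by quasi-likelihood, two-sided, with Benjamini-Hochberg adjustment over all genes, each clone's 12 libraries apart (15695 and 16268 genes) and all 24 together (16816) for contrasts between clones. The count ratio was tested by an exact permutation test that shuffled libraries without regard to IAA arm. The fit was tested on simulated data. Alternatives were DESeq2 1.42.0, RLE size factors, no filter, a block for replicate number, a joint fit of both clones, each IAA arm alone, spline offsets (5 degrees of freedom) for GC content and length, alone and with the block, and each library left out. The test of the IAA contrast between clones and that of the ratio were added after seeing the data. The members, lists and tests were chosen with earlier results of these data known. Named were the members, pathway genes that passed the tests (with RA, also past 2-fold; up to 4 per comparison, by adjusted p), the 3 most similar genes, and RA and degron checks. The lists of genes that passed at 6 h of RA, and the values of *Smad3* there, were added after their values were seen. Some genes and a sequence that these rules would name are not reported here.

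Gene positions and transcript lengths are from GENCODE vM39 on GRCm39, which matched 24071 of 26264 symbols (91.7%). Promoter sequences are from RefSeq on GRCm38.p6. Figures were drawn with matplotlib 3.10.9 in Python 3.11.15.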

Additional observations from a re-analysis of the deposited data

Results flagged for a closer look

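The contrasts below differed between the clones by a test of the difference itself (UTX-AID minus BAP1-AID, edgeR's quasi-likelihood test over all 24 libraries). The RA response at 3 h differed by −0.67 for *Lefty1* and 0.37 for *Smad7* on the log2 scale. The response at 6 h differed by 0.59 for *Lefty2*, 0.57 for *Smad7* and 0.26 for *Tdgf1*. With 1 library left out at a time, the 3 h difference of *Lefty1* passed in 7 of 24 fits, those without BAP1-AID −IAA 0 h replicate 1 or 3 h replicate 2, or without UTX-AID −IAA 0 h replicate 2, −IAA 3 h or 6 h replicate 1, +IAA 0 h replicate 2 or +IAA 3 h replicate 1. The 3 h difference of *Smad7* passed in 4 of 24, those without BAP1-AID −IAA 0 h replicate 1 or 3 h replicate 2 or UTX-AID −IAA 0 h replicate 1 or 6 h replicate 2. *Lefty2* at 6 h was lost without BAP1-AID −IAA 0 h or 6 h replicate 1, +IAA 0 h replicate 1 or +IAA 6 h replicate 2, or without UTX-AID −IAA 0 h replicate 2, −IAA 6 h replicate 1 or +IAA 0 h replicate 2 (adjusted p up to 0.0676). *Tdgf1* at 6 h was lost without BAP1-AID +IAA 0 h or 6 h replicate 2, or UTX-AID +IAA 0 h replicate 2 or 6 h replicate 1 (adjusted p up to 0.0654).

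The IAA contrast differed between the clones by −0.61 for *Skil*, −0.21 for *Tdgf1* and 0.13 for *Tgif1*. The *Tgif1* difference passed in 1 of 24 fits with a library left out, the one without BAP1-AID −IAA 3 h replicate 2, and its adjusted p ran up to 0.156. The *Skil* and *Tdgf1* differences passed in all 24.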

How the results depend on the processing

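All members that rose or fell after RA against 0 h kept their direction in all alternatives tried, as did those in the IAA contrasts averaged over time. Some RA calls did not pass edgeR's test in 1 arm alone. At 6 h in BAP1-AID these were *Tgif2* (+IAA, adjusted p = 0.143) and *Skil* (+IAA, 0.054). In UTX-AID they were *Tgif1* at 3 h (−IAA, 0.0959), *Tdgf1* at 6 h (−IAA, 0.196) and *Skil* at 3 h in both arms (−IAA, 0.154, and +IAA, 0.219). The direction of *Skil* between the clones at 0 h reversed to −0.35 with GC content and length offsets, with and without the replicate block. The number of members that changed between 3 and 6 h of RA in BAP1-AID was 6, where 8.14% of all genes changed. It was 1 in the −IAA arm and 1 in the +IAA arm taken alone. In UTX-AID it was 1, where 1.67% of all genes changed, and 0 in either arm alone. It was 2 there with all 24 libraries in one fit, with the offsets or by DESeq2, and 3 with the replicate block, with or without the offsets. With IAA at 0 h in BAP1-AID it was 5, where 18.5% of all genes changed, and 1 with the offsets and 2 with the offsets and the block. Over all genes, the offsets lowered the number changed from 2896 to 1617 at 0 h and from 2084 to 869 at 3 h. At 3 h the number of members was 4, where 13.3% of all genes changed, and 1 with the offsets, with or without the block. At 6 h it was 2, where 12.5% of all genes changed. In UTX-AID averaged over time it was 1, and 2 with the offsets or by DESeq2 and 3 with the block, with or without the offsets. Over all genes 427 (2.62%) changed there, and 859 with the offsets and the block. At 0 h and at 3 h there the number of members was 0, where 0.043% and 0.264% of all genes changed. It was 1 with the block, with or without the offsets, and at 3 h also 1 without the filter. Between the clones at 0 h it was 5, where 52.6% of all genes changed, and 8 with the offsets and the block. Over all genes the number between the clones was 8848, and 8108 to 8974 over the alternatives that keep all libraries. The 3 h response differed between the clones for 2 members, where it did for 0.755% of all genes. It did for 0 members with RLE size factors and for 1 without the filter or by DESeq2. The IAA contrast differed for 3, where it did for 25.9% of all genes, and for 5 with the block. The cause of these shifts was not tested. Over all genes tested, same-numbered libraries of different groups deviated together only weakly. The correlations were −0.0387 to 0.0626 in BAP1-AID and −0.0119 to 0.0724 in UTX-AID, so the numbers were not taken as pairs. This does not settle the matter for single genes, and *Lefty1*, *Lefty2* and *Skil* kept the same replicate order in all UTX-AID groups, as given below.

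With 1 library left out, the members changed numbered 2 to 7 between 3 and 6 h in BAP1-AID, 0 to 1 in UTX-AID, 2 to 5 for IAA at 0 h in BAP1-AID, 2 to 6 at 3 h and 1 to 5 at 6 h, where the full count was 2. They numbered 0 to 1 for the IAA dependence of the 3 h response in BAP1-AID, 0 to 2 and 1 to 3 for the 3 and 6 h differences between the clones, and 2 to 6 for the IAA contrast between them. Over all genes, the number changed between 3 and 6 h was 1278 in BAP1-AID (311 to 1754 over the alternatives that keep all libraries of an arm, and 644 to 3752 with 1 library left out) and 272 in UTX-AID (47 to 507, and 116 to 329), and that with IAA in UTX-AID was 427 (up to 859, and 181 to 397). Against 0 h it was 1754 (1023 to 2288, and 1281 to 3182 with 1 left out) at 3 h and 3773 (2413 to 4161, and 2850 to 5041) at 6 h in BAP1-AID, and 1343 (580 to 2046, and 1012 to 1370) and 2023 (1049 to 2737, and 1582 to 2082) in UTX-AID. The 3 and 6 h responses depended on IAA in BAP1-AID for 0 and 24 genes (144 and 304 by DESeq2, and 0 to 577 and 0 to 481 with 1 left out) and in UTX-AID for 2 and 0 (up to 5 and 9), and differed between the clones for 127 and 455 (225 and 734 by DESeq2, and 93 to 256 and 300 to 677 with 1 left out). BAP1-AID −IAA 3 h replicate 2 gave the counts of 3182, 3752, 577 and 256 when left out, and −IAA 3 h replicate 1 that of 481. The 300 came without BAP1-AID −IAA 6 h replicate 1. Leaving out any −IAA 6 h, +IAA 3 h or +IAA 6 h library of BAP1-AID lowered the count between 3 and 6 h to 644 to 686. In UTX-AID, leaving out a +IAA library or −IAA 6 h replicate 2 lowered the count with IAA to 181 to 256, and leaving out −IAA 6 h replicate 2 or a +IAA library at 3 or 6 h lowered that between 3 and 6 h to 116 to 171. Estimated counts derive from coverage, so no counting intervals are given.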

Other observations

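In UTX-AID, replicate 1 was above replicate 2 in all 6 groups for *Lefty1* and for *Lefty2* (at 0 h without IAA, 93.5 and 65.5 CPM for *Lefty1* and 110 and 82.7 CPM for *Lefty2*), and below it in all 6 for *Skil*. In BAP1-AID replicate 1 was the higher in 3 groups for *Lefty1* and in 5 for *Lefty2*, and *Acvr2b* was lower in replicate 1 in all 6. In a fit with a replicate block, the standard error of the *Lefty2* difference between the IAA arms of UTX-AID went from 0.0901 to 0.0453, and its value stayed at −0.45 (adjusted p = 2.5e-05). This order was noticed in the data, and the labels give no source for it.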
